A study of Mus musculus with 2 samples.

Results

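High-Gcg α-cells are islet cells with many transcripts of Gcg, the gene of the hormone glucagon, while the other islet hormones stay low. They were chosen from the raw counts of 2 single-cell libraries in 2 steps. Barcodes were kept when more than 2500 genes were detected and less than 10% of the UMIs (molecular tags that each mark 1 captured transcript) came from mitochondrial genes. Of these, cells were taken with at least 1000 Gcg UMIs per 10000 UMIs of the cell, under 300 of Ins1 and Ins2 together, under 40 of Sst and under 150 of Ppy. The limits were met by 1897 of 12900 barcodes, namely 929 of the 7067 control barcodes and 968 of the 5833 TBL/RBKO barcodes. Since these 5 hormone genes chose the cells, their levels are a description and none of them is a result.

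The α-cell is the glucagon-secreting endocrine cell of the islet. It cleaves proglucagon to glucagon with the convertase PC2 (Pcsk2) and releases it when blood glucose is low and when amino acids rise, and glucagon then drives glucose output and amino acid breakdown in the liver. Its identity is held by transcription factors, among them IRX1 and IRX2. Transthyretin (Ttr), a carrier of thyroid hormone and retinol-binding protein, is abundant in mouse α-cells. On the GRCm39 genome (GENCODE mouse release M39), Irx1 and Irx2 lie on the same chromosome at chr13:72106040-72111848 and chr13:72776906-72782317.

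The study set islets of mice aged 5 weeks that lack the transcriptional co-factors TBL1X and TBL1XR1 in β-cells beside islets of control mice. The first group is labelled TBL/RBKO and carried Cre recombinase knocked in at Ins1 and loxP-flanked alleles of Tbl1x and Tbl1xr1 on a C57BL/6N background. The second is labelled wildtype, is called control here, and came from littermates without Cre. Each group gave 1 library, of 150 islets pooled from 4 mice and cultured overnight, so mice within a group could not be told apart and no difference between the groups has a replicate check. Ins1-driven Cre acts in β-cells, so α-cells of TBL/RBKO islets are cells next to β-cells that lost the co-factors, and are not themselves meant to have lost them. Every interval below is a 95% interval of counting error only.

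The libraries held 241434108 UMIs (control) and 185062206 UMIs (TBL/RBKO). Only 14 barcodes occurred in both, and 0 of them met the limits in both. The filter kept 4747 control and 4179 TBL/RBKO barcodes. High-Gcg α-cells made up 19.6% of the kept control barcodes (exact binomial interval 18.5 to 20.7) and 23.2% of the kept TBL/RBKO barcodes (21.9 to 24.5). With the limit on Gcg at 1500 the order turned, to 16.2% and 14.9%. The denominator holds all other cells, among them 2312 control and 545 TBL/RBKO β-cells (at least 1000 insulin UMIs per 10000, other hormones low), so more α-cells and fewer other cells cannot be told apart. Of the kept barcodes with Gcg at 1000 or more, 1145 in the control and 1110 in the TBL/RBKO library, the other limits left 81.1% and 87.2%. Too much Ppy removed 161 and 123 of them, too much insulin 41 and 17, and too much Sst 44 and 24, some for more than 1 hormone.

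The cells were alike in depth. They held a median of 19875 UMIs and 4875 genes in the control library and 19354 UMIs and 4943 genes in the TBL/RBKO library. The mitochondrial share had a median of 2.86% and 3.52%. No upper limit on genes was set, and 123 control cells (13.2%) and 111 TBL/RBKO cells (11.5%) had 6000 genes or more.

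Gcg itself was lower in the TBL/RBKO cells, although the same limit chose both sets. It ran from 1001 to 4699 UMIs per 10000 with a median of 2081 in the control cells, and from 1001 to 4998 with a median of 1700 in the TBL/RBKO cells. Over 3000, there were 102 control cells (11%) and 53 TBL/RBKO cells (5.48%), and between 1000 and 1500 there were 161 (17.3%) and 347 (35.8%). The distributions overlapped over their whole range. Just under the limit, with 900 to 1000, the control library held 15 cells and the TBL/RBKO library 52, against 24 and 54 just over it, with 1000 to 1100. Ttr, which did not choose the cells, had a median of 25.4 UMIs per 10000 just under and 30.9 just over in the control library, and 18.8 and 22.9 in the TBL/RBKO library.

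**Figure D1:**
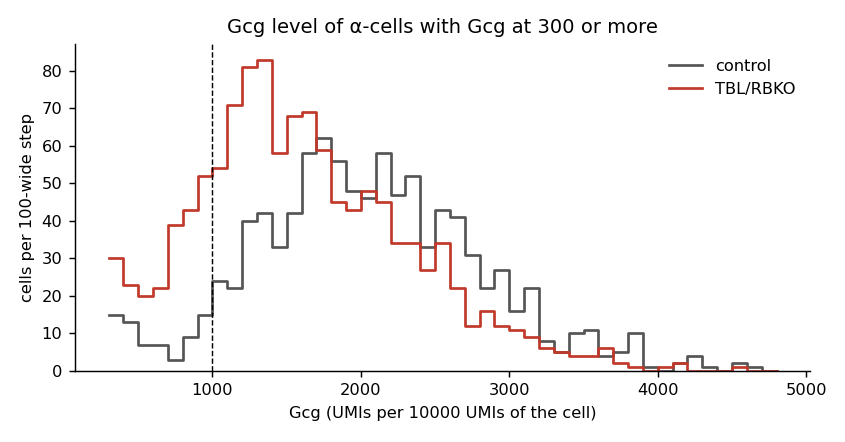
Number of cells (y axis) per 100-wide step of Gcg (x axis, UMIs per 10000 UMIs of the cell) among cells with Gcg at 300 or more and low insulin, Sst and Ppy, with control in grey and TBL/RBKO in red and the limit of 1000 dashed. The TBL/RBKO cells lie further left, with a median of 1700 against 2081 above the limit, a description since Gcg chose the cells.

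Insulin UMIs were counted in every barcode at low level, more in the control library. Control cells had a median Ins2 of 72.0 UMIs per 10000 and TBL/RBKO cells of 15.4, and Ins1 of 23.8 and 2.13. Non-endocrine cells held nearly as many, with medians of 57.6 and 11.4 for Ins2 and 20.1 and 1.53 for Ins1, so these levels are not read as expression. Sst (0.763 and 1.01) and Ppy (6.28 and 6.89) were at few UMIs. Pyy, the peptide YY gene that is found in several islet cell types and was not part of the choice, had a median of 50 and 44.9, and in single cells it ran from 0 to 660 and from 1.34 to 783.

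The α-cell label was checked against genes that did not choose the cells. Levels of these genes are in CPM, counted as UMIs over all UMIs outside the 5 hormone genes, with exact Poisson intervals, and are set beside β-, δ- (Sst) and PP-cells (Ppy) taken by their hormones and beside 144 and 244 non-endocrine cells. Irx1 stood at 86.8 in the control and 74.1 in the TBL/RBKO cells, against 1.23 and 1.27 in β-cells and 4.73 and 2.46 in PP-cells. Irx2 stood at 154 and 128, against 2.70 and 3.57 in β-cells and 24.3 and 23.1 in PP-cells. In both libraries, both genes were therefore far higher than in β-, δ-, PP- or non-endocrine cells. Slc38a5, a glutamine transporter of α-cells, was at 106 and 140, with at most 9.5 in β-, δ-, PP- or non-endocrine cells. Slc7a2, a transporter of cationic amino acids, was at 1136 and 1068, against 220 and 92.7 in β-cells.

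Gc was shared with PP-cells, and Ttr was found in β-cells too, at a low level in most of them. Gc, which encodes the vitamin D-binding protein, was at 220 and 233 and higher in PP-cells (423 and 308). Ttr was at 11247 and 7475, against 755 in control β-cells and 3763 in TBL/RBKO β-cells. In single cells Ttr was detected in every high-Gcg α-cell, whereas Irx1 had a UMI in 64.4% of control and 59.9% of TBL/RBKO cells, with 2.78% and 2.05% in non-endocrine cells of like depth (medians of 21657 and 22032 UMIs). Of cells thinned to 7000 UMIs outside the hormone genes, 39.0% and 36.1% had an Irx1 UMI.

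**Figure D2:**
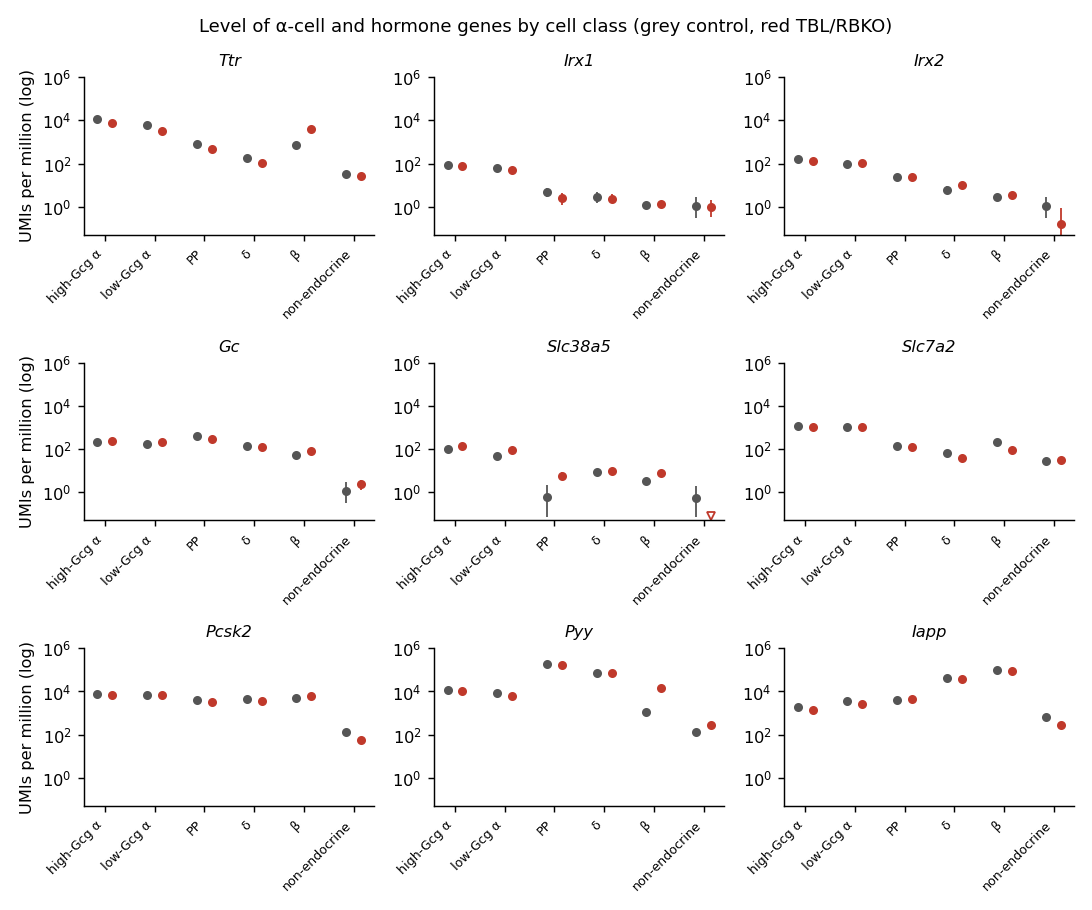
Level of 9 genes (y axis, CPM of UMIs outside the 5 hormone genes, log scale) in 6 cell classes (x axis), with control in grey and TBL/RBKO in red, 95% Poisson intervals as bars and an open triangle where no UMI was counted. Irx1 and Irx2 stand out in α-cells, at 86.8 and 154 in the control library, while Gc is higher in PP-cells and Iapp and Pyy are higher in δ- and PP-cells.

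Within high-Gcg α-cells, more Gcg went with more of several secretory genes. Cells were split at 1500, 2000 and 3000 Gcg UMIs per 10000 into 161, 266, 400 and 102 control cells and 347, 284, 284 and 53 TBL/RBKO cells, and levels outside the hormone genes were compared from the lowest to the highest range. Ttr went from 6381 to 8441, 13218 and 22370 CPM in the control library and from 4646 to 7004, 10317 and 18020 in the TBL/RBKO library. Resp18, a neuroendocrine secretory protein, went from 1715 to 5055 and from 1571 to 3737. Chga, the granin that packs dense-core granules, went from 3636 to 5839 and from 3422 to 5277, and Scg2, a related granin, from 452 to 860 and from 436 to 763. Cryba2, a crystallin gene of endocrine cells, went from 163 to 400 and from 188 to 314. Each of these was higher in each range than in the range before in both libraries.

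Other genes were lower toward high Gcg. Hs6st3, a heparan sulfate sulfotransferase, went from 4681 to 1781 in the control and from 6392 to 2811 in the TBL/RBKO cells. Nxph1, a neurexophilin, went from 1941 to 915 and from 1981 to 913. Fgb, the fibrinogen β chain, went from 23.1 to 2.16 and from 61.9 to 5.93, though the highest range held only 3 and 4 Fgb UMIs. Pcsk2 moved little in comparison, while Irx1 was higher from range to range in the control but not in the TBL/RBKO cells. Irx1 was between 72.8 and 106 in the 4 control ranges and between 59.9 and 85.9 in the TBL/RBKO ranges, and Pcsk2 was between 6596 and 7424 and between 7039 and 7547. The highest range had fewer genes per cell (medians of 4208 and 4302) than the lowest (5117 and 5048), at a like total of UMIs (19752 and 19188 against 19940 and 18615), and its part in these values was not tested. The genes in this paragraph and the one before were chosen after their values were seen.

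**Figure D3:**
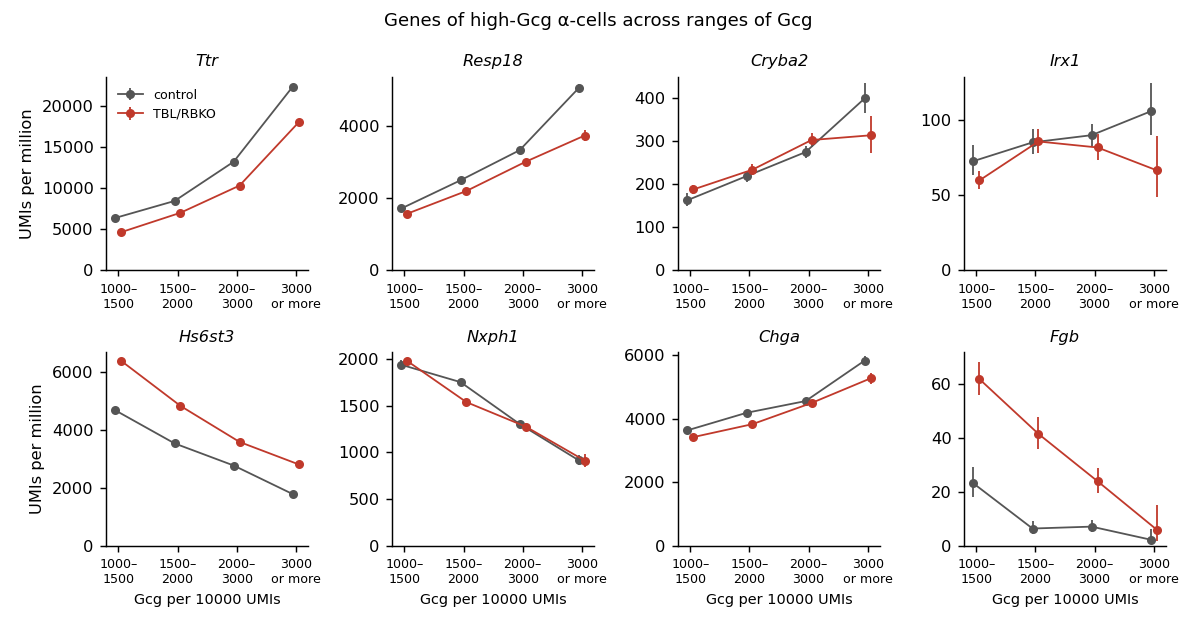
Level of 8 genes (y axes, CPM of UMIs outside the 5 hormone genes, starting at 0) in 4 ranges of Gcg (x axis, UMIs per 10000), with control in grey, TBL/RBKO in red and 95% Poisson intervals as bars. Ttr goes from 6381 to 22370 in the control library and Hs6st3 from 4681 to 1781. Fgb lies higher in TBL/RBKO cells in each range, but its intervals overlap in the highest range, with 3 and 4 UMIs.

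Some genes differed between high-Gcg α-cells far beyond counting error. The Fano factor (variance over mean of the UMIs, 1 for counting error alone) was taken over 902 control and 925 TBL/RBKO cells thinned to 7000 UMIs, leaving out 27 and 43 shallower cells. Its median over genes was 1.08 and 1.09. It was 2 or more in both libraries for 295 of 9637 genes with at least 0.05 UMI per cell (3.06%).

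Pyy varied most, with a Fano factor of 116 in the control and 110 in the TBL/RBKO cells. At 7000 UMIs its 10th, 50th and 90th percentiles were 4, 46 and 191 UMIs in the control and 7, 40 and 183 in the TBL/RBKO cells, so some cells had next to none and others were rich in it. Ttr followed (78.7 and 70.9), with a 10th percentile of 18 and 11 UMIs and a 90th of 177 and 122. Kcnip4, a partner of Kv4 potassium channels, had 19.0 and 18.3, with a median of 3 and 2 UMIs and a 90th percentile of 21 and 16. Iapp, the islet amyloid polypeptide gene that is best known from β-cells, had 14.8 and 25.4. Hs6st3 had 11.3 and 15.5, Nxph1 had 9.48 and 9.97, and the Nrg1 gene (ENSMUSG00000062991; a neuregulin) had 8.91 and 9.06. Gnas, which encodes the stimulatory G protein that couples receptors to cAMP, had 9.49 and 10.2. Ncam2, a neural adhesion molecule, had 19.6 and 7.74, with a median of 0 UMIs in both libraries and a 99th percentile of 4 and 9. Its control value thus rested on few cells. The mitochondrial transcripts mt-Co3 (10.1 and 11.4), mt-Co2 (7.72 and 7.95) and mt-Atp6 (7.71 and 8.31) were also among the 15 leading genes.

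The other 3 of these 15 had UMIs in a minor part of the cells in both libraries. Mgp, a matrix protein of stromal cells, had a Fano factor of 39.7 and 63.8 but a UMI in 33 of 929 and 42 of 968 cells, and Sparc (14.3 and 15.1) in 12 and 30, while 42.4% and 42.2% of non-endocrine cells had an Mgp UMI. Crybb3, a lens crystallin, had 10.9 and 16.5, with a UMI in 107 of 929 and 212 of 968 cells. The top 10% of the cells held 95.1% and 90.6% of its UMIs. In the control library the number of cells with a UMI nearly sets that share.

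**Figure D4:**
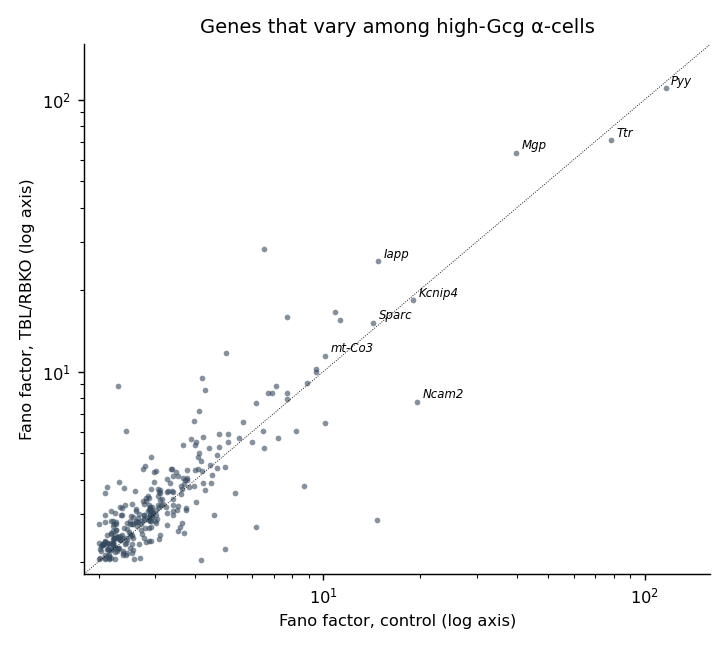
Fano factor (variance over mean of UMIs in cells thinned to 7000 UMIs) in control (x axis) and TBL/RBKO (y axis) cells, both on log axes, for the 295 genes at 2 or more in both libraries. Pyy (116 and 110) and Ttr (78.7 and 70.9) stand at the upper right near the line of equal values.

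Ranks over cells showed which of these went together. Given as a description over 902 and 925 thinned cells of 1 library each, Spearman's rho between Gcg and Ttr was 0.44 in the control and 0.39 in the TBL/RBKO cells, and between Gcg and Hs6st3 it was -0.45 and -0.43. Gcg and Hs6st3 were thus opposed in both libraries. Pyy went with Ppy (0.44 and 0.45), which the choice of cells capped, and against Nrg1 (ENSMUSG00000062991; -0.29 and -0.32). Chga went with Ttr (0.37 and 0.31). The mitochondrial transcripts mt-Co2 and mt-Co3 had a rho of 0.80 and 0.81.

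The α-cells most like these, with the same limits but Gcg from 300 to under 1000, numbered 69 in the control and 229 in the TBL/RBKO library. They were shallower (medians of 12206 and 15710 UMIs) and had a higher mitochondrial share (4.94% and 4.04%). Ratios were taken in each library between summed UMIs, relative to the median of all genes, and a gene was called when it passed 1.5-fold in both. Of 9053 genes, 363 were higher in high-Gcg α-cells (4.01%) and 131 lower (1.45%). Counted against all UMIs and without centring, where Gcg itself takes up part of the total, the split turned to 22 higher and 623 lower.

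The α-cell identity factors had a median of 0.28 and 0.10, with 1 of 19 called higher and 0 lower. Of all genes 4.01% were called higher and 1.45% lower, so these counts say nothing particular to the factors. Ttr was called (0.95 and 1.24), as were Slc38a5 (1.30 and 0.73) and Fxyd3, a subunit that tunes the sodium pump (1.08 and 1.21), so 3 of 16 genes of the list of α-cell secreted and surface markers were higher and 0 lower. The highest genes by the lower of their ratios were Cryba2 (log2 1.25 and 1.09), Tmsb15b1, Fxyd3, Borcs6, A2ml1, 2310034G01Rik, Tmsb15b2, Vgf, H2ax and Nicn1. Borcs6 and 2310034G01Rik had only 9 UMIs each in the control low-Gcg α-cells. Their control ratios had wide intervals, of 0.09 to 2.18 and 0.10 to 2.20. Tmsb15b1 and Tmsb15b2 are close copies whose reads may have been split between them, so their values are uncertain. Vgf, which encodes a secretory granule neuropeptide precursor, was at 58.8 against 30.9 and at 46.5 against 22.7.

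Of 19 genes of oxidative phosphorylation, 7 were called higher in high-Gcg α-cells and 0 lower, beside 4.01% and 1.45% of all genes, and the medians over the 19 were 0.55 and 0.50. Among the 7 were the cytochrome c oxidase subunit genes Cox4i1 (0.61 and 0.62) and Cox5b (0.81 and 0.82), whereas Cox5a (-0.14 and 0.19) was not called. The part of the fewer UMIs and the higher mitochondrial share of the low-Gcg cells in this count was not tested. Cox5b was at 232 against 139 in the control and at 210 against 121 in the TBL/RBKO library. Among 14 granin and prohormone processing genes, Scg5 and Vgf were higher, while Pcsk2 differed by 0.07 and 0.11. Scg5, the chaperone of PC2, was at 1260 against 749 and at 975 against 639. The lists for glucose handling, heat shock and the cell cycle held 0 called genes of 17, 13 and 8.

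The lowest genes were of another kind. H2-Aa (2.56 against 280 in the control, 0.679 against 27.0 in the TBL/RBKO library), Cd74 and H2-Ab1 belong to class II antigen presentation, and Sparc, Lgals3, Apoe, Lgals1, Tgfb1, Pmepa1 and Vim are also genes of macrophages or stroma. Non-endocrine cells held H2-Aa at 1985 and 933. Barcodes with UMIs of 3 or more markers of an acinar, macrophage, endothelial, stromal or lymphoid list were 11 of the control and 4 of the TBL/RBKO high-Gcg α-cells, but 4 of the 69 and 6 of the 229 low-Gcg α-cells. Without them, 85 of the 131 genes were still called, and the ratio of Apoe was 0.13 and -0.08 in place of -4.38 and -2.81. Of α-cell interest among the lower genes were Iapp, at 1990 against 3505 and 1327 against 2712 (log2 -0.75 and -1.0), and the channel gene Cacna1b (-0.91 and -0.61). Single low-Gcg α-cells reached up to 471 and 547 Iapp UMIs per 10000. The medians over cells were close, at 12.1 against 14.2 UMIs per 10000 of all UMIs in the control and 6.61 against 7.42 in the TBL/RBKO library.

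Genes called in the 2 directions differed in length. The genomic span, intron included, had a median of 6.28 kb for the 363 higher genes, 148 kb for the 131 lower genes and 31.9 kb for all genes tested. For the 85 lower genes that were called without the doubtful barcodes it was 223 kb. What part the fewer UMIs and the higher mitochondrial share of the low-Gcg cells have in this was not tested.

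Between the libraries, high-Gcg α-cells were close to each other. Of 9228 genes with a mean of 10 CPM or more, 104 were more than 1.5-fold higher in TBL/RBKO cells (1.13%) and 41 more than 1.5-fold lower (0.444%), relative to the median of all genes. The ratios had an SD of 0.21 over genes on the log2 scale, and the median was 0.03. Per all UMIs and not centred, the counts were 154 and 17, since the median there was 0.10. With the 4 ranges of Gcg weighted by their shares of all 1897 cells in both libraries, an alternative chosen after the data were seen, the counts were 80 and 45, of which 73 and 30 were among the first ones.

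Of the 10 highest ratios most belonged to genes at low level. The highest was that of Fgb, which went from 9.40 (7.94 to 11) to 42.9 (39.8 to 46.2) CPM, a log2 ratio of 2.16 (1.91 to 2.43) relative to the median. It had a UMI in 60 of 929 control cells (6.46%) and 116 of 968 TBL/RBKO cells (12%), or 3.55% and 8.22% after thinning, and in 0 of 144 and 0 of 244 non-endocrine cells, where shares of up to 2.08% and 1.23% remain possible. Its UMIs were therefore held by a small number of cells in both libraries. With equal makeup of Gcg the ratio was 1.8. In δ-cells Fgb was at 5.19 and 26.1 and in PP-cells at 41.1 and 176, and in low-Gcg α-cells at 49.3 and 60.7.

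Kcnh1 was likewise found in few cells, with a UMI in 3.88% and 9.09% of them, against 9.72% and 20.9% of non-endocrine cells, whose part in its ratio was not tested. Kcnh1, a voltage-gated potassium channel, was at 4.73 and 20.1 CPM (log2 2.06), Dscam, a neural adhesion molecule, at 10.7 and 40.2 (1.89), and Sez6l, a seizure-related membrane protein, at 23.5 and 63.6 (1.41). Dgkg, a diacylglycerol kinase, was at 6.20 and 19.4 (1.62). The genes called higher had a median span of 94.0 kb, against 39.2 kb for those called lower and 31.1 kb for all genes tested. With equal makeup of Gcg, Kcnh1 had a ratio of 1.82 and Dscam of 1.65.

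Socs3 and Spp1 had UMIs in more of the cells. Socs3, a feedback inhibitor of cytokine signalling through STAT3, was at 21.6 (19.4 to 24.0) in the control and 54.4 in the TBL/RBKO cells (log2 1.30, 1.12 to 1.49), and had a UMI in 23.7% and 45.1% of cells. In non-endocrine cells these shares were 50% and 46.3%. That was above the α-cell share in the control library, but within its interval (42.0 to 48.3) in the TBL/RBKO library. The level in non-endocrine cells was 55.3 and 45 CPM, above that of the α-cells in the control and under it in the TBL/RBKO library. Within the 4 ranges of Gcg, Socs3 was between 18.7 and 28.8 in the control and between 46.0 and 60.0 in the TBL/RBKO cells. These values did not overlap, but the intervals in the highest range did (20.6 to 39.2 and 31.2 to 65.2). Socs3 also stood higher in the TBL/RBKO library in β-cells (0.87), δ-cells (1.19) and PP-cells (1.65). Spp1, the gene of osteopontin, a secreted matrix protein, was at 83.6 and 274 (1.69), with 78.2% and 77.6% of its UMIs in the top 10% of the cells and up to 965 UMIs in 1 cell. It had a UMI in 31.6% and 50.6% of high-Gcg α-cells and in 29.9% and 27.0% of non-endocrine cells, which held 787 and 404 CPM, so the control share is near that of cells of another type. Crybb3 was at 18.2 and 75.5 (2.02), with a UMI in 11.5% and 21.9% of cells and in 20.1% and 11.5% of non-endocrine cells. S100a6, a calcium-binding protein, was at 4.47 and 19.1 (2.07), but non-endocrine cells held 715 and 1657. Its ratio was 2.96 without barcodes with 3 markers of other cells, and what part their free RNA has in it was not tested.

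**Figure D5:**
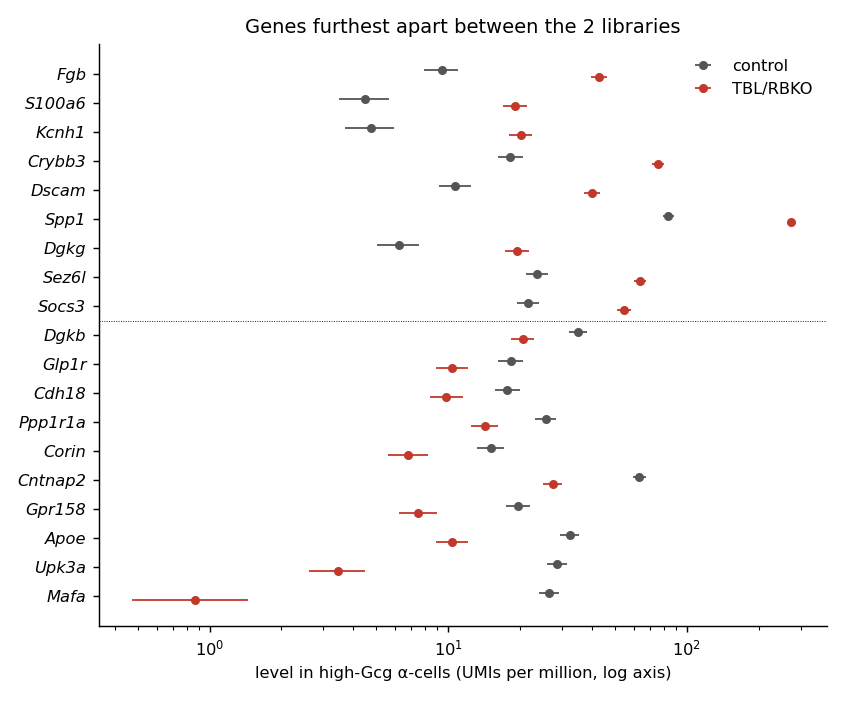
Level in high-Gcg α-cells (x axis, CPM of UMIs outside the 5 hormone genes, log axis) of 9 of the 10 genes with the highest (top) and the 10 with the lowest ratio between libraries, with control in grey, TBL/RBKO in red and 95% Poisson intervals as bars. Fgb goes from 9.40 to 42.9 and Upk3a from 28.6 to 3.46.

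On the lower side, Mafa and Upk3a stood apart. Mafa, a transcription factor of mature β-cells, was at 26.5 in the control and 0.865 in the TBL/RBKO high-Gcg α-cells (log2 -4.97, -5.85 to -4.20). Non-endocrine cells held it at 16.6 and 0.919, δ-cells at 23.3 and 1.58 and PP-cells at 25.1 and 0.738, so its level was of one order in these classes and lower in all of them in the TBL/RBKO library, as in β-cells (1087 and 279). The part of free RNA from β-cells in these UMIs was not tested. Upk3a, a uroplakin of the urothelium, was at 28.6 (26.0 to 31.4) and 3.46 (2.61 to 4.49), a log2 ratio of -3.08 (-3.50 to -2.67). It had a UMI in 128 of 929 and 44 of 968 cells, or 8.76% and 2.27% after thinning, and in 0 of 144 and 0 of 244 non-endocrine cells. Control β-cells held 2.07, so that unlike Mafa its level in control α-cells was above that in β-cells. Low-Gcg α-cells had Upk3a at 28.0 and 3.48 and PP-cells at 17.8 and 2.46.

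The other 8 of the 10 lowest genes had smaller ratios. Gpr158, an orphan receptor, was at 19.6 and 7.47 (log2 -1.42), Cntnap2, a neurexin-like adhesion protein, at 63.2 and 27.4 (-1.24), and Ppp1r1a, a protein phosphatase inhibitor, at 25.6 and 14.2 (-0.88). In control β-cells these 3 stood at 636, 1354 and 618 and in TBL/RBKO β-cells at 377, 596 and 149. With the β-cell profile scaled on Ins2 and subtracted, an alternative that was not planned, they had ratios of -1.08, -0.97 and -0.48. Corin, a protease that activates natriuretic peptide, was at 15.1 and 6.79 (-1.18) and was nearly absent from β-cells (0.310 and 1.23). Cdh18, a cadherin, was at 17.7 and 9.82 (-0.88). Glp1r, the receptor of GLP-1, was at 18.3 and 10.4 (-0.84), far under its level in β-cells (678 and 861), and Dgkb was at 35.0 and 20.5 (-0.80). Apoe was at 32.3 and 10.4 (-1.66), and without the barcodes with 3 markers of other cells at -0.67.

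Of the α-cell genes, Ttr and Arg1 were past the fold and the factors were not. Ttr had a log2 ratio of -0.62 (-0.63 to -0.61), which was -0.35 with equal makeup of Gcg, so that it no longer passed. It was lower in TBL/RBKO cells in each of the 4 ranges. Arg1, the arginase that breaks down arginine, was at 102 and 60.7 (-0.77), and at -0.76 with equal makeup of Gcg. Irx2 (-0.29) and Irx1 (-0.26) lay under the fold, Gc was at 0.05 and Slc7a2 at -0.12, and Slc38a5 stood at 0.37 with an interval of 0.28 to 0.46. None of the 19 identity factors tested was called in either direction, with a median of 0.03, and 2 of 16 secreted and surface markers were lower, with a median of -0.09. These shares stand beside 1.13% and 0.444% of all genes. Pyy had a ratio of -0.16. Pcsk2 was at 7238 and 7174 (-0.04), and Pcsk1, which cleaves proinsulin, was low (8.76 and 5.44). Gcgr, the glucagon receptor, had 14 and 24 UMIs in all.

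Iapp was called lower (1990 and 1327, log2 -0.61) but turned to 0.16 once the β-cell profile was subtracted. Among 10 β-cell markers tested it was 1 of 3 called lower, beside Mafa and Ppp1r1a, and the list's median was -0.42. Summed over the whole list of 18, β-cell markers were at 5375 and 4072 in high-Gcg α-cells and at 3587 and 3431 in non-endocrine cells. Rbp4, the retinol carrier and a δ-cell marker, was at 636 and 399 (-0.70) in high-Gcg α-cells and at 5.05 and 23.4 in non-endocrine cells, and it was called lower also with the β-cell profile subtracted (-0.71).

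Few calls fell in the lists of cell functions between the libraries, as few did among all genes (1.13% higher and 0.444% lower), so counts of 0 in lists of this size say nothing particular to them. The 14 granin and prohormone processing genes had 0 calls and a median of -0.14, the 17 exocytosis genes 0 and -0.01, the 21 channel genes 0 and 0.04, the 16 amino acid genes 0 and 0.06, the 19 glucose handling genes 0 and -0.06, the 26 ER genes 0 and -0.08, the 13 heat shock genes 0 and -0.05 and the 7 cell cycle genes 0 and -0.09. Oxidative phosphorylation had 0 calls of 19 with a median of -0.14. For ER stress, Hspa5, the chaperone BiP, was at 661 and 664. For exocytosis, Rims2, an active zone protein, was at 790 and 822, and for channels, Cacnb2, a calcium channel subunit, was at 1132 and 1236.

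Single members of other lists were called. Of 21 immediate early genes, Socs3 and Cebpd (11 and 19.1 CPM, log2 0.77) were higher, while Fos (1571 and 1438) and Egr1 (890 and 841) were not called. Of 14 antigen presentation and interferon genes, Irf9 was higher (12 and 18.4 CPM, 0.60) and the list had the highest median, 0.29, with H2-K1 at 271 and 334. Of 23 antioxidant and metal genes, Mt2, a metallothionein, was higher (25.9 and 54.0, 1.03) and Hmox1, the haem oxygenase, lower (24.7 and 14.7, -0.78). Non-endocrine cells held Hmox1 at 1169 and 491, and it was at -0.45 without the barcodes with 3 markers of other cells. Of 20 cAMP genes, the phosphodiesterase gene Pde3a was higher (9.40 and 16.6, 0.80), and of 14 receptors Glp1r was lower. The 6 genes of the NCoR/SMRT corepressor, which TBL1X and TBL1XR1 join, had 0 calls and a median of 0.08.

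The deletion itself was looked for in these cells. The plus-strand Cre feature had 0 UMIs in 929 control cells, so that a share of up to 0.323% of cells with a UMI remains possible, and 8 UMIs in 7 of 968 TBL/RBKO cells (0.723%, exact binomial interval 0.291 to 1.48). In the same library it had UMIs in 23.9% of β-cells, at a median of 65621 UMIs a cell, and in 1.64% (0.448 to 4.14) of non-endocrine cells. The share in α-cells was thus not above that in cells of another type, and its source was not tested. Tbl1x was at 357 and 375 CPM in high-Gcg α-cells (log2 0.04, -0.01 to 0.09) and Tbl1xr1 at 49.6 and 56.5 (0.16, 0.02 to 0.30). These 3′ counts need not lie in the deleted exons and do not check the deletion, since TBL/RBKO β-cells held more Tbl1x (481) than control β-cells (195).

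Markers of the non-endocrine cell types were low. Summed over 13 genes, acinar markers were at 4.09 and 4.51 CPM in high-Gcg α-cells, with 7 of the 13 at 0 in both libraries. Macrophage markers were at 55.8 and 27.8 (9292 and 4030 in non-endocrine cells), endothelial markers at 22.5 and 9.82, stromal markers at 58.7 and 51.6 and lymphoid markers at 2.68 and 5.06. C1qa, a complement gene of macrophages, was the 1 macrophage gene tested and was lower in TBL/RBKO cells (31.3 and 19.1, log2 -0.73). Ductal markers summed to 700 and 931, of which Krt8 (236 and 264) and Krt18 (191 and 192), keratins of simple epithelia, were the highest. At least 3 ductal markers were found in 83.3% of control and 86.8% of TBL/RBKO cells, so that list did not set other cells apart. The part of these markers in the differences above was not tested, other than where a value without the marked barcodes is given.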

How the data were processed

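Islet cells of 1 control and 1 TBL/RBKO library were studied. The deposited values are raw UMI counts per gene and barcode (22383 features). The submitters' processing notes name Cell Ranger 7.1.0 and GRCm39 (mm39), and values down to 500 UMIs per barcode are present. No doublet or free RNA removal was applied here in the main values. Positions come from GENCODE M39, matched by Ensembl identifier for 22317 features.

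From the counts, UMIs were summed over cells per library and given as CPM of the UMIs outside Gcg, Ins1, Ins2, Sst and Ppy. Ratios were taken relative to the median of all genes with a mean of 10 or more, with exact conditional intervals, and a gene past 1.5-fold was called. With 1 library per group there is no test, and no p-value is given. Genes were named by rank: the 10 highest and 10 lowest with at least 100 UMIs between libraries, the 10 highest and lowest against low-Gcg cells, the 15 with the highest Fano factor, up to 4 past the fold and the 2 of highest level in each list, and the α-cell and hormone genes. Some genes that the rule names are not reported here. Non-endocrine cells had 2 or more UMIs of at least 4 markers of a macrophage, endothelial, stromal or lymphoid list, low hormones, and Chga and Chgb together under 5 UMIs per 10000. The members, limits and gene lists were chosen with earlier results of these data known. Alternatives were other limits, the removal of the highest Scrublet scores (scanpy 1.11.5) at 5.65% and 4.67% of barcodes, and other scales and filters. Not planned, and added after the data were seen, were subtraction of the β-cell profile scaled on Ins2 and equal Gcg makeup. The scripts were tested on simulated data. Python 3.11.15, numpy 2.4.6, scipy 1.17.1 and pandas 2.3.3 were used.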

Additional observations from a re-analysis of the deposited data

Results flagged for a closer look

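The plus-strand Cre feature, which none of the comparisons used, gave 8 UMIs in high-Gcg α-cells of the TBL/RBKO library and 0 in those of the control library.

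For some genes the ratio between libraries, TBL/RBKO over control and relative to the median of the genes tested in each class, was past 1.5-fold one way in high-Gcg α-cells and past 1.5-fold the other way in another islet cell type. None of these differences was tested. Ttr stood at -0.62 in high-Gcg α-cells and 2.48 in β-cells (755 and 3763 CPM). That β-cell ratio is of summed UMIs. Per cell, on the scale of the hormone limits, β-cell Ttr had medians of 2.88 (control) and 4.52 (TBL/RBKO). Its 95th percentile was 7.28 and 78.4, and that of Gcg in the same cells was 10.2 and 110. What part the β-cells with more Gcg have in the β-cell ratios given here was not tested. Arg1 was at -0.77 in high-Gcg α-cells and, in β-cells, 1.36. Rbp4 was at -0.70 and, in β-cells, 0.78. Hmox1 was at -0.78 and, in β-cells, 1.19. Dgkb was at -0.80 in high-Gcg α-cells, 1.03 in β-cells, 0.68 in δ-cells and 0.59 in PP-cells. Gpr158 was at -1.42 in high-Gcg α-cells and 0.77 in PP-cells (16.9 and 28.5 CPM), and Glp1r was at -0.84 and 1.05 (23.4 and 47.7 CPM in PP-cells).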

How the results depend on the processing

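No paired analysis was possible because each group has 1 library. The share of kept barcodes in the control and TBL/RBKO library was 27.4% and 33.9% with fewer than 6000 genes, 16.2% and 14.9% with Gcg at 1500 or more (where the order of the libraries turned), and 21.1% and 25.7% without barcodes with 3 markers of other cells, and 16.9% in the control with insulin under 150. The counts higher and lower in TBL/RBKO cells were 33 and 13 at a mean of 50 CPM, 1053 and 897 with no filter on level, where counting error is large, and 17 were lower per all UMIs and not centred. Against low-Gcg α-cells, the counts higher and lower were 656 and 257 with Gcg at 1500 or more, 811 and 203 as a mean over cells, 928 and 861 with no filter, and 22 and 623 per all UMIs. There were 738 higher with fewer than 6000 genes and 25 lower at a mean of 50. Scaled in place of thinned, 187 genes varied. Iapp turned to 0.16 with the β-cell profile subtracted. Against low-Gcg α-cells, leaving out barcodes with 3 other-cell markers turned H2-Aa (1.32) and Cd74 (1.15) in the TBL/RBKO library and Sparc (0.17), Apoe (0.13), Tgfb1 (0.92) and Pmepa1 (1.66) in the control. The limit of 6000 genes turned Cd74 (1.27), Sparc (0.09), Lgals3 (1.56) and Apoe (1.35) in the control and Sparc (2.28) and Vim (1.54) in the TBL/RBKO library, and leaving out the highest Scrublet scores turned Apoe (1.72) in the control. The cause was not tested for these. The marker exclusion left the ductal list out, and subtraction of a non-endocrine profile was not run, since transcripts of those cells themselves dominate it. Depth limits genes under 10 CPM and the 69 control low-Gcg cells.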
